A study of Homo sapiens with 6 samples.

Results

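The genes described here are the well-expressed members of the ZNF group of zinc finger genes in A549 cells, an established human lung adenocarcinoma cell line. They were chosen by 2 criteria, a symbol made of ZNF and a number (with or without a final letter) on a row of the mRNA type, and a mean level of at least 10 CPM, a count scaled to the library total, over all 6 libraries. The table listed 506 ZNF symbols of the mRNA type among 40173 genes, and 175 of them met the criteria. Of the remaining ZNF symbols, 195 were tested at a lower level and 136 were not tested because their counts were too low, 74 of them with 0 counts in every library. All 175 well-expressed genes passed the filter on low counts, which left 15250 genes to test.

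A549 cells had been transfected with an siRNA against the long noncoding RNA FAM83H-AS1 (the silenced group) or with a negative control (the control group), and total RNA was taken 24 h later. Each group had 3 libraries, and the labels name no other difference between the groups. Nothing in the labels says whether the libraries came from separate cultures, so the p-values measure only the spread between these libraries, which may be technical. The question was which ZNF mRNAs differed in level once FAM83H-AS1 was silenced.

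The libraries held from 9738291 to 17742643 counts. FAM83H-AS1 itself was at 14.5, 16.0 and 17.3 CPM in control libraries 1, 2 and 3 and at 4.59, 4.44 and 5.57 CPM in the silenced libraries, so that 30.6% of the control level was left (log2 fold change -1.70, SE 0.148, adjusted p = 7.99e-05, edgeR's quasi-likelihood test). Control library 3 stood apart in that 3.22% of its counts fell on the rRNA pseudogene RNA5-8SP6, against 0.241 to 0.448% in the other libraries. Of the epithelial markers, KRT8 was at 1590 to 2080 CPM and KRT18 at 951 to 1360 CPM, but EPCAM was at 2.82 to 4.49 CPM and CDH1 at 0.691 to 1.66 CPM. The alveolar marker SFTPA1 was at 0 in every library and SFTPC at 0.206 to 0.74 CPM, and the leukocyte marker PTPRC did not pass 0.0925 CPM.

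Classical zinc fingers are short loops held by a zinc ion that read DNA, and in some proteins RNA, a few bases at a time. The largest ZNF class couples an array of fingers to a KRAB box, which recruits the corepressor TRIM28 and with it the methyltransferase SETDB1, histone deacetylases and heterochromatin proteins, and which is best known for silencing transposable elements. Many KRAB genes lie in clusters on chromosome 19 that grew by tandem duplication. Other ZNF proteins lack the KRAB box and serve as transcriptional activators, partners of chromatin complexes, RNA-binding proteins or ribosome factors.

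Mean levels of the well-expressed ZNF genes ran from 10 to 172 CPM with a median of 21.3 CPM, 39 genes were over 40 CPM and 9 over 100 CPM, and together they took 0.519 to 0.576% of the counts of a library. Divided by transcript length, the highest levels were those of ZNF622 (91.4 CPM per kb), which matures the large ribosomal subunit, ZNF207 (82.8 CPM per kb), a spindle assembly protein, and ZNF385A (62.5 CPM per kb), a double-stranded RNA-binding partner of p53, against a median of 5.61 CPM per kb. The threshold cut a continuous range. Just inside it were ZNF860 at 10 CPM, ZNF786 at 10.4 CPM and ZNF845 at 10.5 CPM, and just outside it ZNF513 at 9.71 CPM, ZNF780B at 9.60 CPM and ZNF32 at 9.48 CPM.

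After silencing, 15 of the 175 genes rose and 11 fell at an adjusted p under 0.05 (edgeR's quasi-likelihood test with Benjamini-Hochberg adjustment over all tested genes), and 149 did not pass. The rises made up 8.57% of the members, against 8.75% of all tested genes and 10.8% of the tested genes with a mean of at least 10 CPM. The falls made up 6.29%, against 8.27% of all tested genes and 10.8% of those at 10 CPM or more. With the library totals alone as scaling, 21 were higher and 5 lower. In these bulk libraries, fewer cells with a transcript and less of it per cell cannot be told apart. Changes were small. With a fold change over 2 added to the criteria, 0 ZNF genes were higher and 1, ZNF219, was lower, where 1.14% of all tested genes were higher and 0.997% lower (0.269 and 0.489% of the genes at 10 CPM or more). The log2 fold changes ran from -1.01 to 0.94 with a median of 0.04, against -0.00 over all tested genes, and 164 of the 175 lay within 0.5 of 0.

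**Figure D1:**
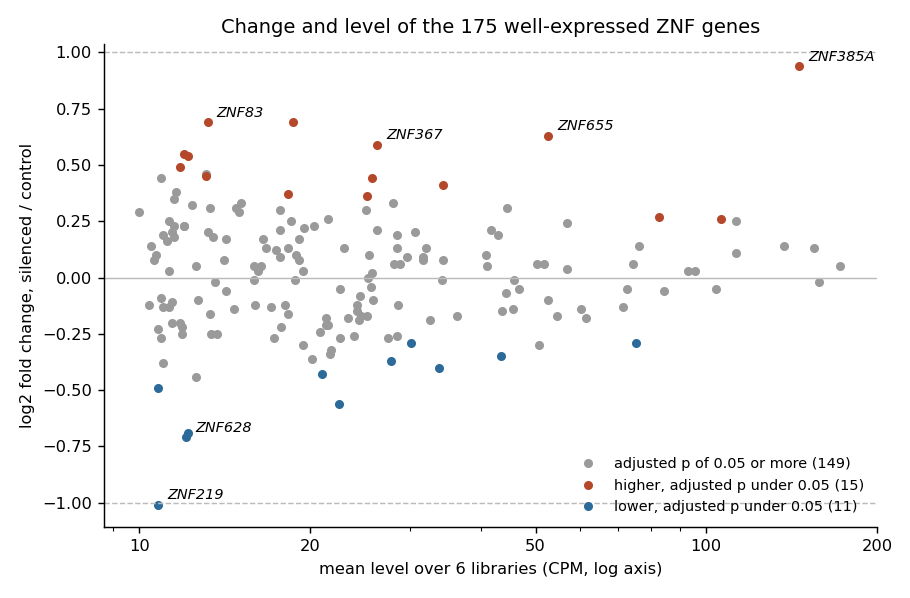
Log2 fold change (silenced over control) of each of the 175 well-expressed ZNF genes against its mean level in CPM over 6 libraries (log axis). Red points are the 15 genes that rose, blue points the 11 that fell and grey points the 149 that did not pass an adjusted p of 0.05. Dashed lines mark a 2-fold change, which ZNF219 passes at -1.01 and ZNF385A, at 0.94, does not.

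In 81 members (46.3%) the 3 control values and the 3 silenced values did not overlap, against 36.6% of all tested genes and 42.0% of the genes at 10 CPM or more. All 26 genes that changed were among them. The number of calls depended on single libraries. Without silenced library 1 only 7 genes passed, without control library 1 11 passed, and without control library 2 or without silenced library 2 17 passed, whereas without control library 3 the number was 22 and without silenced library 3 it was 19. The share called also fell over all genes at 10 CPM or more, from 21.5% to between 10.5 and 16.9% with 1 library left out. In the members it fell from 14.9% to between 4.0 and 12.6%. ZNF219, ZNF367, ZNF385A, ZNF394, ZNF655 and ZNF83 passed with any 1 library left out. Of the 195 tested ZNF genes under 10 CPM, 7 were called (3.59%), with a median standard error of 0.219 for the log2 fold change against 0.114 in the well-expressed genes.

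**Figure D2:**
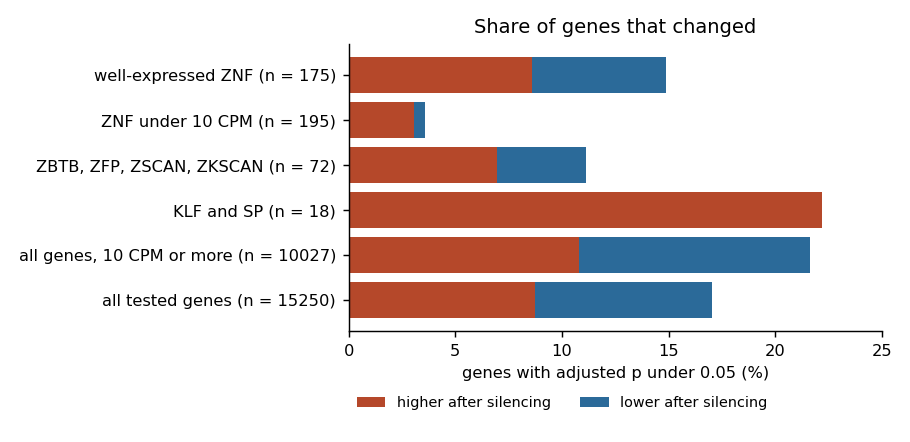
Percentage of genes with an adjusted p under 0.05 in each gene set, split into genes higher (red) and lower (blue) after silencing. The well-expressed ZNF genes reach 14.9%, ZNF genes under 10 CPM 3.59% and all genes at 10 CPM or more 21.5%. The ZBTB, ZFP, ZSCAN and ZKSCAN genes and the KLF and SP genes are tested genes of any level.

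Other zinc finger genes were counted from the same fit, but at any level tested and without the threshold of 10 CPM. Their shares are thus not at the same threshold as that of the members. Of 72 tested ZBTB, ZFP, ZSCAN and ZKSCAN genes, 5 rose and 3 fell (11.1%), with a median log2 fold change of 0.01. Of 18 tested KLF and SP genes, 4 rose and 0 fell (22.2%), and their median was 0.25. The 47 tested ZC3H, ZCCHC and ZDHHC genes, whose zinc-binding domains are of other kinds, had 2 that rose and 5 that fell (14.9%) and a median of 0.01. The median levels of these sets were 14.0, 24.1 and 27.2 CPM, in the order given. The share of well-expressed ZNF genes called lay below that of all genes at 10 CPM or more under each of the 16 alternative settings, for example 12.6% against 20.8% with DESeq2. The genes at 10 CPM or more had a median level of 43.6 CPM and a median standard error of 0.0961, against 21.3 CPM and 0.114 in the members. The part of level and precision in the shares was not tested. These shares are descriptions, and the difference between the sets was not tested.

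ZNF385A had the largest rise. Its gene lies on the minus strand at chr12:54369133-54391298 (GRCh38), and its protein, a target and partner of p53, is known to steer p53 towards cell cycle arrest genes. It was at 111, 98.2 and 89.8 CPM in the control libraries and at 195, 192 and 187 CPM in the silenced libraries. Every silenced library thus stood well above every control library, and the silenced values were close to each other. The mean went from 99.5 ± 10.4 to 191 ± 3.90 CPM (SD, n = 3 each), 192% of control, with a log2 fold change of 0.94 (SE 0.0841, adjusted p = 9.2e-05). With 1 library left out, the adjusted p did not pass 0.00162.

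ZNF655 and ZNF394 lie close to each other on chromosome 7, at chr7:99558406-99576453 on the plus strand and at chr7:99486519-99500324 on the minus strand (GRCh38). ZNF655, which encodes a binding partner of the signalling protein VAV1, was at 40.1, 40.7 and 42.7 CPM in the control libraries and at 66.0, 67.7 and 58.4 CPM in the silenced libraries (log2 fold change 0.63, SE 0.0826, adjusted p = 0.000893). ZNF394, which carries a SCAN domain, an interface for pairing with other SCAN proteins, was at 28.2, 30.1 and 30.1 CPM and at 37.4, 42.3 and 37.5 CPM (0.41, SE 0.0872, adjusted p = 0.0106). Neither gene had overlapping groups. Each overlaps exons of 1 gene on the opposite strand, and 5.35% of the 50-base words of the ZNF655 transcript are shared with other genes. How strand and multiply matching reads were counted is not given in the sources used here.

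ZNF367, a transcription factor with few fingers, was at 21.3, 21.9 and 19.7 CPM in the control libraries and at 29.5, 34.6 and 30.7 CPM in the silenced libraries (log2 fold change 0.59, SE 0.0987, adjusted p = 0.0031). ZNF22, known from tooth development as KROX-26, was at 8.02, 11.6 and 9.46 CPM and at 14.3, 15.9 and 12.6 CPM (0.55, SE 0.155, adjusted p = 0.0335). ZNF292, a large protein whose loss is linked to intellectual disability, was at 21.8, 22.2 and 21.4 CPM and at 31.4, 28.2 and 28.9 CPM (0.44, SE 0.0904, adjusted p = 0.00909). In all of these the silenced libraries were the higher ones, with the smallest gap in ZNF22. The ZNF292 call was lost without silenced library 1 (adjusted p = 0.0506), and the adjusted p of ZNF22 reached 0.102 with 1 library left out.

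ZNF219 had the largest fall and was the sole well-expressed ZNF gene past a 2-fold change. It encodes a transcription factor known as a partner of SOX9 in cartilage and lies on the minus strand at chr14:21090046-21104722 (GRCh38). Its levels were 17.8, 11.7 and 14.1 CPM in the control libraries and 7.81, 6.47 and 7.28 CPM in the silenced libraries, with control library 1 the highest and no overlap. The mean went from 14.6 ± 3.04 to 7.19 ± 0.674 CPM, 49.4% of control (log2 fold change -1.01, SE 0.169, adjusted p = 0.00317). Over the alternatives its log2 fold change ran from -1.14 to -0.74, so that the 2-fold mark was not always passed. Exons of 2 genes on the opposite strand overlap it.

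ZNF628, which is needed for sperm development in mice, was at 19.1, 13.1 and 13.1 CPM in the control libraries and at 9.57, 7.77 and 10 CPM in the silenced libraries (log2 fold change -0.71, SE 0.174, adjusted p = 0.0188). ZNF428 was at 17.9, 15.1 and 12.5 CPM and at 10.4, 6.29 and 11.1 CPM (-0.69, SE 0.204, adjusted p = 0.0405). In both, control library 1 was the highest and silenced library 2 the lowest, and the gap between the groups was narrow. With 1 library left out, the adjusted p rose to as much as 0.0557 for ZNF628 and 0.122 for ZNF428.

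ZNF618, which binds 5-hydroxymethylcytosine together with UHRF2, was at 26.7, 22.6 and 31.2 CPM in the control libraries and at 17.9, 19.1 and 18.0 CPM in the silenced libraries (log2 fold change -0.56, SE 0.123, adjusted p = 0.012). ZNF74, a gene of the DiGeorge region, was at 13.8, 12.6 and 11.5 CPM and at 7.62, 9.25 and 9.96 CPM (-0.49, SE 0.144, adjusted p = 0.0405). The silenced values of ZNF618 were tightly grouped below all controls, while in ZNF74 the gap was small. ZNF618 was lost without silenced library 1 (adjusted p = 0.0525), and ZNF74 reached 0.146.

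ZNF580 and ZNF692 fell as well. ZNF580 was at 26.9, 21.3 and 24.2 CPM in the control libraries and at 20.6, 15 and 18.1 CPM in the silenced libraries (log2 fold change -0.43, SE 0.132, adjusted p = 0.0462). ZNF692, a repressor regulated by the energy sensor AMPK, was at 49.6, 50.7 and 46.4 CPM and at 41.5, 32.4 and 40.6 CPM (-0.35, SE 0.101, adjusted p = 0.035). The lowest control value of ZNF580 was close to its highest silenced value, and silenced library 2 was the lowest in both genes. Exons of 2 genes on the same strand overlap ZNF580. With 1 library left out the adjusted p reached 0.132 for ZNF580 and 0.101 for ZNF692.

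**Figure D3:**
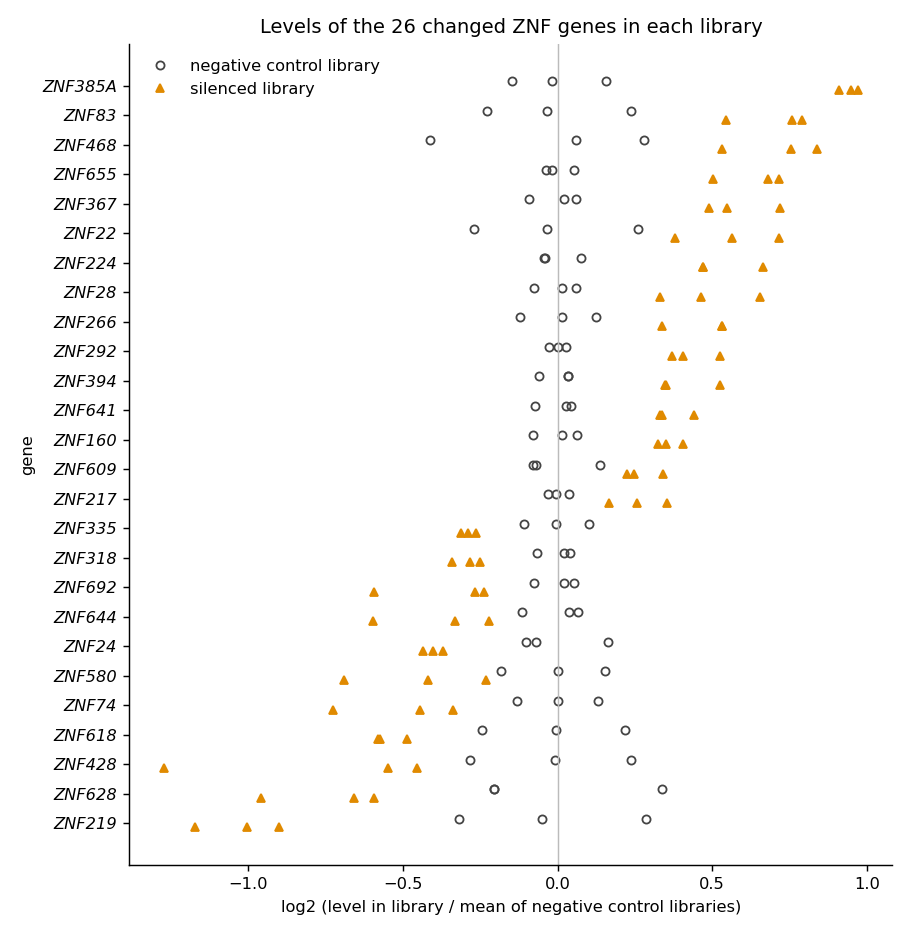
Level of each of the 26 changed ZNF genes in each library, as log2 of the ratio to the mean of the 3 control libraries. Open circles are control libraries and orange triangles silenced libraries. No gene has overlapping groups, the silenced libraries of ZNF385A lie furthest to the right, and silenced library 2 of ZNF428 furthest to the left.

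The members were also grouped by known role, and their shares can be read against the 14.9% called over all members. Of the 3 genes of ribosome maturation and translation quality control, 0 passed. ZNF622 was at 153, 150 and 143 CPM in the control libraries and at 161, 157 and 170 CPM in the silenced libraries, groups that did not overlap but differed by 0.13 on the log2 scale (SE 0.0698, adjusted p = 0.232). ZNF598, the ubiquitin ligase that marks collided ribosomes, gave -0.06 (SE 0.0761, adjusted p = 0.622), and ZNF593, another factor of the large ribosomal subunit, -0.17 (SE 0.131, adjusted p = 0.409). Of the 7 RNA-binding or nuclear RNA genes, 1 passed, ZNF385A. The highest member by CPM, ZNF106, was at 164, 173 and 171 CPM and at 167, 186 and 174 CPM, with overlapping groups (0.05, SE 0.0709, adjusted p = 0.644). ZNF207, at 154, 164 and 159 CPM and at 163, 157 and 150 CPM, overlapped too (-0.02, SE 0.0693, adjusted p = 0.868).

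Of the 11 well-expressed partners of chromatin corepressors, 1 rose and 2 fell (27.3%, against 21.5% of the genes at 10 CPM or more). ZNF217, an oncoprotein of the CoREST and LSD1 complex, was at 94.2, 95.9 and 98.8 CPM in the control libraries and at 115, 108 and 123 CPM in the silenced libraries (log2 fold change 0.26, SE 0.0759, adjusted p = 0.0385). ZNF644, which binds the histone H3K9 methyltransferases EHMT1 and EHMT2, was at 33.0, 32.3 and 29.1 CPM and at 27.0, 20.8 and 25 CPM (-0.37, SE 0.11, adjusted p = 0.0401). ZNF318, needed in B cells for the IgD transcript, was at 33.7, 34.1 and 31.7 CPM and at 26.2, 27.9 and 27.3 CPM (-0.29, SE 0.0846, adjusted p = 0.0388). The groups were separate in each of these, but leaving out 1 library took the adjusted p to 0.131, 0.11 and 0.137 at most. ZNF592, of the complex around ZMYND8, was at 132, 122 and 139 CPM and at 146, 147 and 140 CPM without passing (0.14, SE 0.0742, adjusted p = 0.226).

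Of the 15 sequence-specific activators and housekeeping factors, 1 rose, ZNF292, and 3 fell, ZNF219, ZNF24 and ZNF335. That is 26.7%, against 21.5% of the genes at 10 CPM or more. ZNF24, a SCAN protein known from myelination, was at 35.9, 43.1 and 36.7 CPM in the control libraries and at 29.8, 29.1 and 28.5 CPM in the silenced libraries (log2 fold change -0.40, SE 0.0938, adjusted p = 0.0151). ZNF335, part of an H3K4 methyltransferase complex and a microcephaly gene, was at 89.2, 77.1 and 82.8 CPM and at 69.2, 66.9 and 67.9 CPM (-0.29, SE 0.078, adjusted p = 0.029). For both the silenced values were nearly equal and lay below all controls, and with 1 library left out the adjusted p reached 0.0577 for ZNF24 and 0.0855 for ZNF335. ZNF143, a promoter factor of many housekeeping genes, was at 19.3 ± 2.57 and 19.5 ± 1.55 CPM (0.03, adjusted p = 0.906).

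ZNF641 and ZNF609, which are in none of these role groups, rose. ZNF641 was at 16.2, 16.4 and 15.1 CPM in the control libraries and at 20, 21.6 and 20.1 CPM in the silenced libraries (log2 fold change 0.37, SE 0.101, adjusted p = 0.0283). ZNF609, the host gene of a well-known circular RNA, was at 71.2, 70.8 and 82.3 CPM and at 87.3, 94.7 and 88.8 CPM (0.27, SE 0.0833, adjusted p = 0.048). The groups were apart in both, with control library 3 of ZNF609 nearest to the silenced ones. With 1 library left out the adjusted p reached 0.106 for ZNF641 and 0.143 for ZNF609. The counts are per gene and do not separate circular RNA from mRNA.

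Of the members, 9 had an adjusted p from 0.05 to 0.06, 5 with a log2 fold change above 0 and 4 below. ZNF142 was at 60.5, 48.1 and 59.4 CPM in the control libraries and at 47.3, 45.4 and 43.9 CPM in the silenced libraries (-0.30, SE 0.0962, adjusted p = 0.0535). ZNF205 was at 17.3, 13.6 and 12.9 CPM and at 11.5, 9.62 and 10.8 CPM (-0.44, SE 0.145, adjusted p = 0.0569). In both the groups were apart by little. ZNF395 was at 105, 97.0 and 108 CPM in the control libraries and at 125, 113 and 131 CPM in the silenced libraries (log2 fold change 0.25, SE 0.0806, adjusted p = 0.0545). ZNF516, a cofactor of the CtBP and LSD1 corepressors, was at 9.46, 9.67 and 11.1 CPM and at 13.3, 13.4 and 13.0 CPM (0.38, SE 0.124, adjusted p = 0.0546). Just outside this range was ZNF410, whose known direct target is the NuRD gene CHD4. It was at 36.2, 39.0 and 44.0 CPM and at 47.2, 56.1 and 45.4 CPM (0.31, SE 0.104, adjusted p = 0.0617). None of these overlapped either, although control library 3 and silenced library 3 of ZNF410 were close. CHD4 itself was at 523, 539 and 542 CPM and at 552, 587 and 556 CPM (0.08, SE 0.0643, adjusted p = 0.431).

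A KRAB pattern was found in 68 of the 174 members whose coding sequence could be read from GENCODE 29, and a SCAN pattern in 13. The pattern misses degenerate boxes, among them that of ZNF224, a known KRAB protein. The class without the pattern therefore also holds KRAB proteins, and how many was not counted. Members with the pattern had a median of 12 fingers and those without it 7, and 31 was the highest number. Of the 68 genes with the KRAB pattern, 5 rose and 1 fell (8.82%), and their median log2 fold change was 0.06. Of the 106 genes without the pattern, 10 rose and 10 fell (18.9%), with a median of 0.03. The SCAN genes had 1 that rose and 1 that fell. By number of fingers, 3 rose and 5 fell of the 40 members with 0 to 4 fingers (median -0.08), 5 rose and 3 fell of 53 with 5 to 9 (0.02), 3 rose and 2 fell of 50 with 10 to 14 (0.08), and 4 rose and 1 fell of 31 with 15 or more (0.13). By level, 7 rose and 4 fell of the 83 members at 10 to 20 CPM (median 0.08), 4 rose and 5 fell of 53 at 20 to 40 CPM (-0.08), and 4 rose and 2 fell of 39 above that (0.04).

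The genes with the KRAB pattern that rose were ZNF83, ZNF468, ZNF28, ZNF160 and ZNF266, all on chromosome 19. The 1 that fell was ZNF74. KRAB proteins that the pattern misses are not counted among these. ZNF83 was at 8.53, 11.8 and 9.76 CPM in the control libraries and at 17.3, 16.9 and 14.6 CPM in the silenced libraries (log2 fold change 0.69, SE 0.143, adjusted p = 0.00921). ZNF468 was at 10.6, 14.7 and 17.1 CPM and at 23.8, 25.2 and 20.4 CPM (0.69, SE 0.158, adjusted p = 0.014). In both, every silenced library was above every control library. ZNF28 was at 9.87, 10.2 and 9.28 CPM and at 13.5, 15.4 and 12.3 CPM (0.49, SE 0.131, adjusted p = 0.0287). ZNF160 was at 20.9, 22.3 and 23.1 CPM and at 28.2, 29.3 and 27.7 CPM (0.36, SE 0.0903, adjusted p = 0.0211). ZNF266 was at 10.1, 11.1 and 12 CPM and at 15.9, 15.9 and 13.9 CPM (0.45, SE 0.124, adjusted p = 0.0297). The control values of ZNF28, ZNF160 and ZNF266 varied little, and the silenced values lay above them. ZNF224, a repressor of the aldolase A gene, was at 9.66, 10.5 and 9.70 CPM and at 15.8, 13.8 and 13.8 CPM (0.54, SE 0.123, adjusted p = 0.0139). Without silenced library 1 the calls of ZNF468, ZNF28, ZNF160, ZNF266 and ZNF224 were all lost. Without control library 1 or 2 those of ZNF28, ZNF160 and ZNF266 were lost too, without silenced library 2 those of ZNF28 and ZNF266, and without control library 3 that of ZNF28. DESeq2 did not call ZNF28 (adjusted p = 0.0537) or ZNF266 (adjusted p = 0.0586). ZNF83 passed with any 1 library left out, at an adjusted p of up to 0.045.

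Chromosome 19 held 54 of the members (31.0%), of which 6 rose and 3 fell, with a median log2 fold change of 0.13 and 36 above 0. On the other chromosomes 9 of 120 rose and 8 fell, with a median of -0.01. Other mRNAs of chromosome 19 at 10 CPM or more had a median of -0.13 over 519 genes, with 25 that rose and 105 that fell. The 34 members of chromosome 19 with the KRAB pattern had a median of 0.17 (5 rose, 0 fell). The 34 with the pattern on other chromosomes had -0.01 (0 rose, 1 fell), and the 86 there without it 0.03 (9 rose, 7 fell). KRAB proteins that the pattern misses are counted among those without it, on any chromosome. These counts therefore do not cover all KRAB genes. Chromosome 19 members without the KRAB pattern, 20 in number, had a median of 0.00 (1 rose, 3 fell). A correction for the GC content of the transcripts, described further on, was chosen after the data had been seen. After it, the other mRNAs of chromosome 19 had a median of -0.03 (73 higher, 100 lower) and the members there 0.11. The median was 0.11 for the members there with the KRAB pattern (6 higher, 0 lower) and 0.08 for those without it (3 higher, 3 lower). The gap between members and other mRNAs was thus smaller, as was that between members with and without the pattern. These are counts and medians, and the difference between chromosomes was not tested.

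When members with starts less than 500 kb apart were joined, 4 of the 6 genes that rose on chromosome 19 lay in 1 block, at chr19:52012765-53580269 (GRCh38). It held 14 members, 13 of them with a log2 fold change above 0, from -0.06 in ZNF480 to 0.69 in ZNF83 and ZNF468, with a median of 0.23. The groups did not overlap in 7 of the 14. Over all members this share was 46.3%, over the members of chromosome 19 55.6%, and over the genes at 10 CPM or more 42.0%. The blocks were not among the planned comparisons, and this block had the most calls. Its 9 tested ZNF genes under 10 CPM were all above 0, with a median of 0.33. Of these, 2 rose, ZNF816 (0.62, adjusted p = 0.0406) and ZNF701 (0.53, adjusted p = 0.0337). Over all 195 tested ZNF genes under 10 CPM, 118 (60.5%) were above 0, with a median of 0.09. The sole other mRNA at 10 CPM or more in the block, the phosphatase subunit PPP2R1A, gave -0.03. Further along, a block of 5 members at chr19:55476332-56121280 had 0 above 0 and 2 that fell, ZNF628 and ZNF580. The last block, of 14 members at chr19:57191500-58481230, had 0 calls and a median of 0.12.

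**Figure D4:**
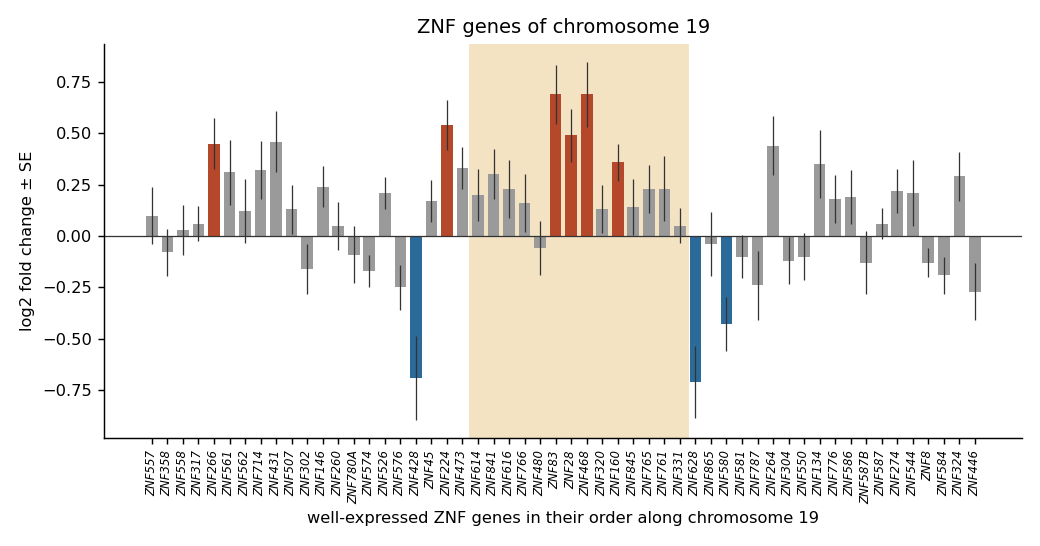
Log2 fold change with its standard error for the 54 well-expressed ZNF genes of chromosome 19, in their order along the chromosome and not to distance. Red bars rose, blue bars fell, grey bars did not pass an adjusted p of 0.05, and the shaded band marks the block of 14 genes, of which 13 are above 0.

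Neighbouring KRAB genes are copies of each other, so some reads could count for more than 1 gene. In ZNF320, at a log2 fold change of 0.13, 99.5% of the 50-base words of the transcript also occur in other genes, ZNF468 first among them. The share was 9.91% in ZNF468, 9.54% in ZNF28, 2.99% in ZNF160 and 0.137% in ZNF83. Over the 8 members of the block with at most 5% of words shared, 2 rose and the median was 0.22. Over all members, 37 had more than 5% of words shared, 3 of which changed. Exons of another gene overlapped 91 of the members, 13 of the 26 changed genes among them. Without silenced library 1 the block had 1 call, and without control library 1 or 2 it had 2, with medians of 0.26, 0.17 and 0.26.

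The genes through which KRAB proteins silence chromatin were also counted. Of 36 such genes, all tested, 1 rose and 5 fell (16.7%, against 17% of all tested genes and 21.5% of those at 10 CPM or more), and the median log2 fold change was -0.01. TRIM28, the corepressor that binds the KRAB box, was at 694 ± 25.7 and 627 ± 30.9 CPM (-0.15, SE 0.0688, adjusted p = 0.171), and SETDB1 gave 0.08 (adjusted p = 0.475). The genes that fell were MBD3 (-0.76, adjusted p = 0.00097), CHD3 (-0.23, adjusted p = 0.0347), MTA1 (-0.26, adjusted p = 0.0477) and RBBP4 (-0.25, adjusted p = 0.0449), which encode subunits of chromatin complexes such as NuRD, and EHMT2 (-0.42, adjusted p = 0.00266), the H3K9 methyltransferase that ZNF644 binds. Other NuRD genes of the list did not pass, among them CHD4 (0.08), HDAC1 (0.14), HDAC2 (0.04), GATAD2B (0.03), RBBP7 (0.01) and MTA2 (-0.14). The remodeler ATRX rose (0.29, adjusted p = 0.0197). Leaving out any 1 library took the number of genes that fell to 2 or 3.

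The GC content of the transcript moved with the changes. The 11 genes that fell had a median GC content of 59.5% and the 15 that rose 43.2%, against 48.2% over the members. Across 174 members, Spearman's rho of GC content and log2 fold change was -0.409, a correlation across genes that share the same libraries and are not independent. Of the 70 members under 45% GC, 10 rose and 2 fell, with a median log2 fold change of 0.13 and 52 above 0. Of the 57 over 55% GC, 1 rose, ZNF385A at 63.5% GC, and 8 fell, with a median of -0.15 and 14 above 0.

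The same relation stood in other genes and between libraries of 1 group. Over 8859 mRNAs at 10 CPM or more rho was -0.281, with medians of 0.08 under 45% GC and -0.09 over 55% GC. Under 45% GC, 13.5% of these mRNAs rose and 5.31% fell, against 14.3% and 2.86% of the members. Over 55% GC, 7.78% of them rose and 16.3% fell, against 1.75% and 14.0% of the members. Between libraries of the same group, rho over the members ran from -0.561 for control library 2 against control library 1 to 0.378 for silenced library 3 against silenced library 2. After a correction of each library for GC content, chosen after the data had been seen, rho over the members was -0.13, 20 members were higher and 16 lower, and 25 of the 26 calls were shared, ZNF217 being lost at an adjusted p of 0.0605. The median of the block on chromosome 19 was then 0.14 with the same number of calls, 4. The part of GC content in the remaining differences was not tested.

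**Figure D5:**
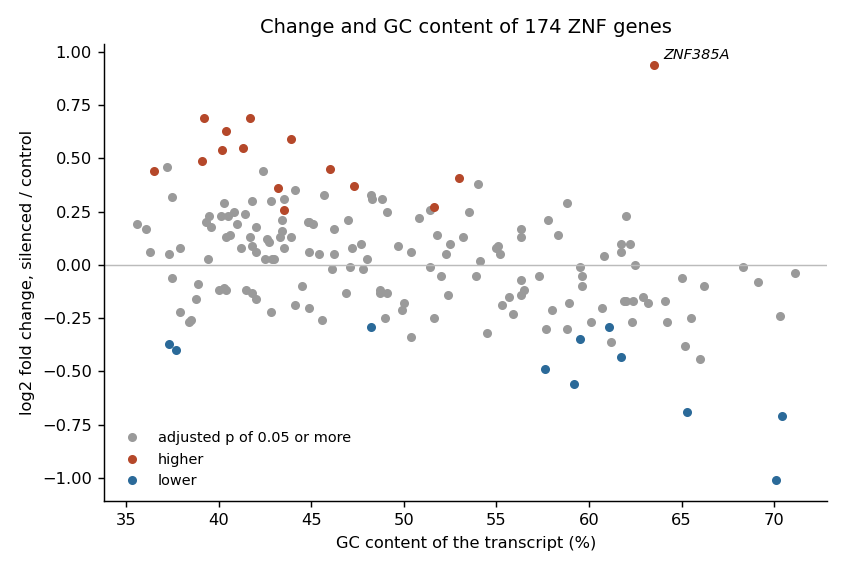
Log2 fold change against the GC content of the transcript for the 174 members with an annotated transcript. Red points rose, blue points fell and grey points did not pass an adjusted p of 0.05. The cloud slopes down from left to right (rho -0.409), and ZNF385A lies alone at the upper right.

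The 7-base sequence CCAATAA is shown because it was picked, in these libraries, as a 3′-UTR word of mRNAs with low log2 fold changes. It was chosen on the values it is counted on, so its counts are not independent evidence. Searched on the sense strand in the 3′-UTRs of every annotated protein-coding transcript of a gene, it was in at least 1 of them in 27 of 174 members (15.5%), against 12.7% of 8853 mRNAs at 10 CPM or more. Of these 27 members, 2 rose and 5 fell (median log2 fold change 0.05), and 13 rose and 6 fell among the 147 without it (0.04). Over all mRNAs at 10 CPM or more, 72 of 1121 with the sequence rose and 291 fell, with a median of -0.10, while 905 of 7732 without it rose and 669 fell. The sites of the 7 changed members follow, read 5′ to 3′ from the GENCODE 29 transcript with the longest 3′-UTR that holds it, with CCAATAA in capitals, the first of 2 sites for ZNF24.
ZNF219, chr14:21090098-21090104, minus strand: agtcgtgtccCCAATAAacaggtgtct
ZNF618, chr9:114052051-114052057, plus strand: ccaccccttcCCAATAAtaaagcatca
ZNF74, chr22:20407255-20407261, plus strand: atctttcttgCCAATAAaaagaaggga
ZNF24, chr18:35335248-35335254, minus strand: aagtcagtgtCCAATAAagctgtaaac
ZNF318, chr6:43336339-43336345, minus strand: gtattgtgatCCAATAAcactttgtat
ZNF160, chr19:53073183-53073189, minus strand: ggaatctaaaCCAATAAaactaatagc
ZNF292, chr6:87263596-87263602, plus strand: agacttactaCCAATAAgcataaaacc

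The coordinates are of the 7 bases on GRCh38. The first 5 of these genes fell, by 1.01 in ZNF219, 0.56 in ZNF618, 0.49 in ZNF74, 0.40 in ZNF24 and 0.29 in ZNF318 on the log2 scale, and ZNF160 and ZNF292 rose by 0.36 and 0.44. In ZNF219, ZNF618, ZNF74, ZNF24 and ZNF160 the match shares bases with an AATAAA, the usual polyadenylation hexamer, and in ZNF318 and ZNF292 it does not. Of the other 6 members that fell, ZNF628, ZNF428, ZNF580, ZNF644, ZNF692 and ZNF335, none held CCAATAA in a 3′-UTR searched. A match is a description of the sequence and not of binding.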

How the data were processed

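RNA-Seq was made from total RNA of A549 cells with an Ion Proton kit. MapSplice was used by the authors for mapping and for counts per gene, and the submitters' processing notes name GRCh37. The deposited table holds raw whole counts, and no normalization precedes it. How strand and multiply matching reads were treated is not given in the sources used here. Each library's group came from its treatment label.

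Counts were tested with edgeR 4.0.16 (R 4.3.3): filterByExpr, TMM factors, and the quasi-likelihood test of silenced against control over all genes, with Benjamini-Hochberg adjustment. Levels are CPM with TMM factors, except the mean used to choose members, which is count over column total. On simulated data with 200 changed genes among 15250, edgeR recovered 200 with 1 false call and DESeq2 1.42.0 recovered 200 with 0. The exact two-sided permutation test of FAM83H-AS1 gave p = 0.1, the smallest that 3 libraries against 3 allow.

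The members and gene lists were chosen with earlier results of these data known. Named genes were members past a 2-fold change, the 10 largest rises and falls among those with an adjusted p under 0.05, the 5 highest levels, the 3 just inside and outside 10 CPM, and changed members of the role groups. ZNF160, ZNF394, ZNF609, ZNF641, ZNF142, ZNF143, ZNF205, ZNF395, ZNF410, ZNF516, ZNF593 and ZNF598 were added after their values were seen. So were ZNF320, ZNF480, ZNF701, ZNF816, PPP2R1A and the genes named among the KRAB cofactors. Gene positions, transcript GC content, 3′-UTRs and finger, KRAB and SCAN patterns came from GENCODE 29 (GRCh38) by symbol, with coding sequences translated, for 174 members (ZNF259 had no match). For the GC correction, each library was adjusted by a lowess curve (span 0.3) of its log2 deviations on GC content, over 11570 of 12245 tested mRNAs (94.5%). The alternatives were another threshold, DESeq2, other scalings and filters, a replicate block, thinning, mRNA rows alone, other member thresholds and each library left out.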

Additional observations from a re-analysis of the deposited data

How the results depend on the processing

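No change of the 26 ZNF genes reversed its direction in any of 416 single-gene alternatives, of which 307 kept the call and 109 lost it, and 5 genes passed in all of them (ZNF219, ZNF367, ZNF385A, ZNF655 and ZNF83). DESeq2 called 22 members, 21 of them shared. An adjusted p under 0.01 left 5 higher and 1 lower. With library sizes alone as scaling, 21 were higher and 5 lower, 0 were lower by over 2-fold, and the median log2 fold change was 0.07. The GC correction gave 1 higher and 0 lower past 2-fold and a median of 0.02, and the filter of at least 1 count a median of 0.03. Restricting to mRNA rows gave 37 calls. At a member threshold of 20 CPM there were 8 higher, 7 lower and 0 lower past 2-fold, with a median of -0.01, and at 5 CPM 20 of 267 genes were higher and 12 lower. Leaving out 1 library gave 5 to 14 higher, 2 to 8 lower, 0 to 1 past 2-fold in each direction and a median of 0.01 to 0.04. The log2 fold change of ZNF207, which never passed, changed sign to 0.01 with library sizes alone and ran from -0.05 to 0.01 with 1 library left out. Of the KRAB cofactors, 0 were higher and 2 lower at an adjusted p under 0.01, 0 higher with a median of -0.05 after the GC correction, 2 lower with library sizes alone, and 0 to 1 higher and 2 to 3 lower with a median of -0.04 to -0.01 without 1 library. Apart from the construction of each alternative, the cause of these shifts was not tested.

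Whether the replicate numbers pair the libraries was not settled. Same-numbered deviations correlated at 0.311, 0.265 and -0.0466 over 10028 genes, and differently numbered ones at -0.354 to 0.204. Control libraries 1 and 2 each correlated most with the silenced library of the same number, and control library 3 did not. A fit with the replicate block called 22 higher and 16 lower, 38 in all, 26 of them shared. These numbers are those of the deposited columns. The silenced libraries are numbered in another order elsewhere in the study, and in that order the correlations were 0.204, -0.174 and 0.149. Thinning to the smallest library gave 27 calls, and over the 83 members at 10 to 20 CPM the median size of a log2 fold change was 0.20 with a median standard error of 0.131.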
